A study of Homo sapiens with 6 samples.

Results

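The 32 genes described here belong to the p53 pathway: regulators that hold p53 in check and genes that p53 is known to switch on. They were taken by symbol from a fixed list, all 32 were among the 18056 genes of the deposited table, and all 32 had enough counts to be among the 13842 genes tested. CDKN1A, the best known p53 target, is not one of the 32 and is given only as context. The rule that lists them uses no measured value, but the list was chosen with earlier results of these data known. Shares of members set beside shares of all genes are therefore descriptions.

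The libraries came from forebrain organoids, cell aggregates patterned to resemble the dorsal forebrain, grown from the established wild-type induced pluripotent stem cell line DYR0100. Vehicle was given for 3 of the 6 libraries, and the other 3 came from organoids that received the amyloid peptide Aβ42 at 5 µM, all for 6 days, all labelled Batch1 and numbered 1 to 3 in each group. Polyadenylated RNA was sequenced in bulk to 16465390 to 16742958 counts per library, so a change in the share of a cell type and a change in RNA per cell cannot be told apart. All organoids come from 1 line, the composition of the vehicle and the age of the organoids are not given in the sources used here, and nothing in the labels says that replicates are separate differentiations, so p-values measure the spread between these libraries. The label for cell type names the starting stem cell, but 10 of 10 dorsal forebrain markers were measurable. Together they summed to 1847 to 1904 TPM in vehicle and 1689 to 1832 TPM with Aβ42. At an unadjusted p under 0.05, 0 of 10 were higher and 2 lower, against 12.4% and 11.5% of all genes. The 6 pluripotency markers together reached 2.08 to 4.13 TPM per library. Of 9 microglial markers, 4 (TREM2, TYROBP, C1QA and C1QB) had 0 counts in every library and 1 had enough counts to be tested. The 9 together summed to 4.71 to 5.55 TPM in vehicle and 5.23 to 6.31 TPM with Aβ42.

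p53 is a transcription factor that accumulates after DNA damage, ribosomal stress and other insults, when the ubiquitin ligase MDM2 no longer removes it. It then raises genes for cell cycle arrest, DNA repair, death and metabolism, and it also raises MDM2, which closes a feedback loop. In the developing cortex p53 activity is known for removing or halting neural progenitors whose genome or cell division is disturbed.

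The DNA that p53 binds is a pair of half-sites of 10 bases, and such pairs can be read off the promoters of some of these genes. RefSeq promoter windows (GRCh38.p14, 250 bases before to 50 after a start) were available for 27 of the 32 members, 42 windows in all, and TP53INP1, TNFRSF10B, GADD45A, RRM2B and PHLDA3 had none. A match was defined as 2 copies of the p53 half-site consensus, known by that name, with 0 to 13 bases between them, the central C and G of each copy intact and at most 2 mismatches in all. The consensus reads alike on both strands. Matches lay in 6 of 42 member windows (14.3%), against 2.93% of 35116 windows of all genes, and they belonged to 5 members, or 18.5% of 27 against 3.62% of 27305 genes. The members were picked as p53 targets, so this share only describes them. The 5 sites are shown because they include DDB2, the member with the largest difference after Aβ42, and MDM2, which went the other way. By GENCODE 29 the sites of DDB2 (chr11:47214979-47214999, plus strand), AEN (chr15:88621306-88621325, plus) and FDXR (chr17:74872996-74873025, minus) lie in untranslated exons, and those of MDM2 (chr12:68808923-68808942, plus) and FAS (chr10:88991309-88991328, plus) in introns. Capitals mark the half-sites and lower case the bases between them, 5′ to 3′ on the strand of the gene.
DDB2: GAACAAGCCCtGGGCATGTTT
MDM2: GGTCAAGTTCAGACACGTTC
FAS: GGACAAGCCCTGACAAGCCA
AEN: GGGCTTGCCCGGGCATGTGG
FDXR: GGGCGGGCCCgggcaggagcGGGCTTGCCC
DDB2's site had 0 mismatches, with its first base at position 6 of the transcript that starts there. In the other 4 genes the site had 2 mismatches, and its first base lay 94 or 101 bases upstream of 2 neighbouring MDM2 starts, 122 upstream in FAS, 34 in AEN and 31 in FDXR. MDM2 has a p53-driven promoter inside its gene, and 100 bases around the site on the plus strand (chr12:68808883-68808982, intronic in GENCODE 29) show the site in its setting.
MDM2: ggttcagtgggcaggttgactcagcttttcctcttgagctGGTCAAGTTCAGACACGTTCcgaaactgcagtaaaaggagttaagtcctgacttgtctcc
A site found by letters is a description of the sequence and says nothing of whether p53 was bound in these organoids. Of the 5 members with a site, DDB2 was higher and MDM2 lower after Aβ42 at an unadjusted p under 0.05, and FAS, AEN and FDXR did not reach it.

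In vehicle organoids all 32 genes were expressed, and their levels per transcript length (TPM, transcripts per 1000000) ran from 2.09 to 205 TPM. CYFIP2, a subunit of the actin-regulating WAVE complex that is abundant in neurons, was highest at 205 ± 2.53 TPM (mean ± SD, n = 3). Cyclin G1 (CCNG1, 127 ± 1.98 TPM), the polo-like kinase gene PLK2 (112 ± 2.19 TPM) and EI24, which encodes a membrane protein of the endoplasmic reticulum (112 ± 3.01 TPM), came next. CCNG1 lay above PLK2 and EI24 in every vehicle library, while PLK2 and EI24 overlapped. Among the genes of cell death the pore-forming BAX stood at 95.8 ± 6.41 TPM, whereas the BH3-only genes BBC3 (PUMA) and PMAIP1 (NOXA) were at 19.8 ± 2.89 TPM and 8.17 ± 0.632 TPM. The lowest levels were those of FAS (2.09 ± 0.273 TPM), SPATA18 (3.15 ± 0.43 TPM) and PERP (5.62 ± 1.24 TPM). FAS rested on 26 to 43.0 counts per library, PERP on 45 to 92, TP53I3 on 34 to 84, SPATA18 on 73 to 94 and PMAIP1 on 82 to 110, the fewest of the 32.

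**Figure D1:**
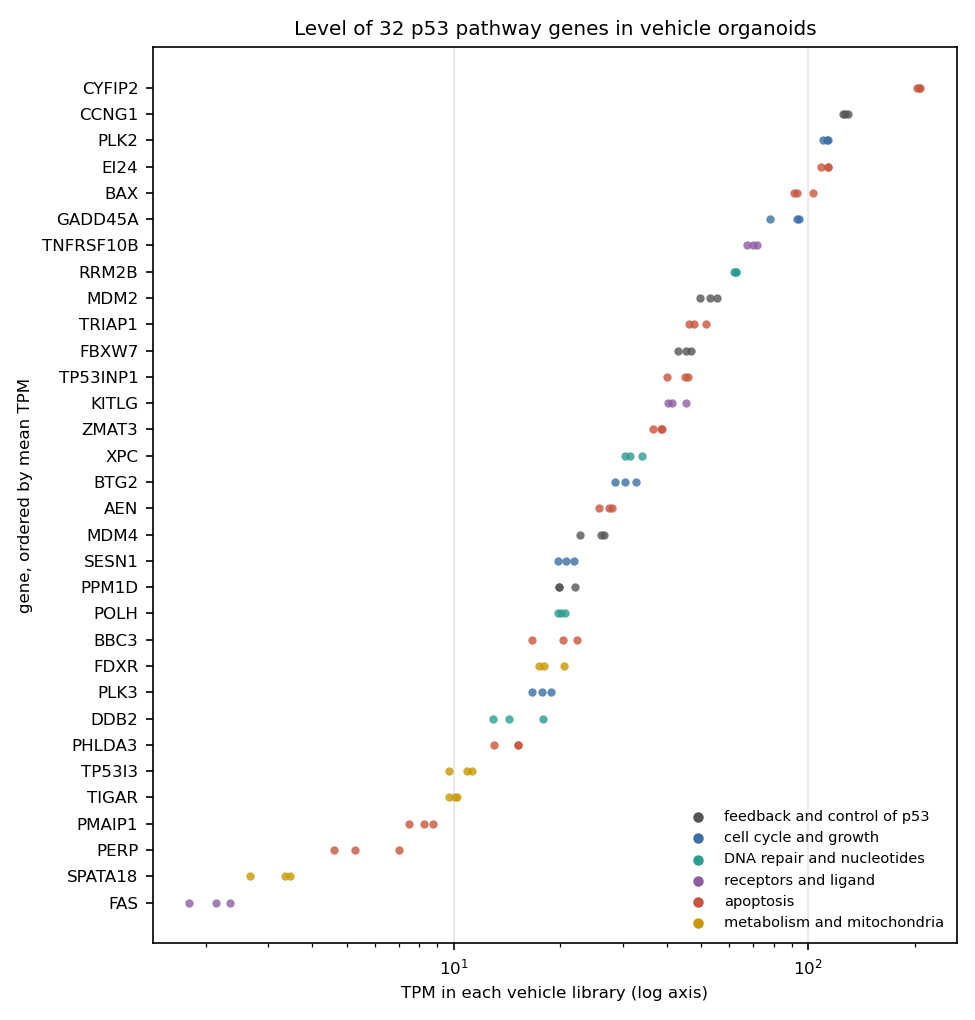
Level of the 32 genes in the 3 vehicle libraries, in TPM on a log axis, 1 point per library, coloured by role and ordered by mean. CYFIP2 lies highest at 202 to 207 TPM and FAS lowest at 1.80 to 2.34 TPM, and the 3 libraries of a gene lie close together compared with the distance between genes.

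No member passed an adjusted p of 0.05 in edgeR's quasi-likelihood test over all 13842 genes (0 of 32, with 0% of all genes called), and 13 of 32 (40.6%) had an unadjusted p under 0.05, against 23.9% of all genes. Of these, 8 were higher with Aβ42 (25%, against 12.4% of all genes) and 5 lower (15.6%, against 11.5%). In 12 members (37.5%) the groups did not overlap, against 27% of all genes. The higher genes were DDB2, BBC3, RRM2B, GADD45A, ZMAT3, BTG2, CCNG1 and TNFRSF10B, and the lower ones TP53I3, PERP, TIGAR, KITLG and MDM2. Over all 32 members the median log2 fold change was 0.01 and 17 were above 0 (53.1%), against a median of 0.0032 and 50.7% over all genes. Their median size of log2 fold change was 0.15, against 0.12 over all genes.

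The replicate number mattered for the calls. Deviations from the group means correlated at 0.181, 0.384 and 0.129 between libraries numbered 1, 2 and 3. Vehicle 3 with Aβ42 1 gave 0.176 and vehicle 1 with Aβ42 3 gave 0.149, so only number 2 stood apart. Numbers 1 and 3 were not told apart, and the block was chosen from these same data. With the number as a block 10 of 32 members passed an adjusted p of 0.05 (31.2%, against 14.2% of all genes): RRM2B, DDB2, GADD45A, BBC3, CCNG1 and ZMAT3 rose and KITLG, TIGAR, MDM2 and PERP fell. Leaving out Aβ42 replicate 2 changed the calls too, and without it 12 members passed with no block (37.5%, against 23.1% of all genes), namely the same 10 with TNFRSF10B and TP53I3. That library was the Aβ42 library nearest to vehicle in 70.4% of the 3732 genes without overlap. Why its removal gave more calls was not tested. When any other library was left out, no member passed. DESeq2's Wald test called 4 of the 28 members to which it gave an adjusted p (14.3%, against 7.12% of all genes with one), RRM2B, DDB2, GADD45A and ZMAT3, and limma-voom called 0 with 12 at an unadjusted p under 0.05. In what follows, values per library are CPM (counts per 1000000 counts of the library, scaled by TMM) in the order of replicates 1 to 3, log2 fold changes are Aβ42 over vehicle, given ± SE or with a 95% interval, and an adjusted p is edgeR's without the block unless the block is named. Over the 15 alternatives tried, the adjusted p-values of the 13 members ranged from 0.000187 to 0.524, and none of the 13 changed sign. The 13 were picked by their p-value in these same libraries, so a kept sign is no separate support.

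**Figure D2:**
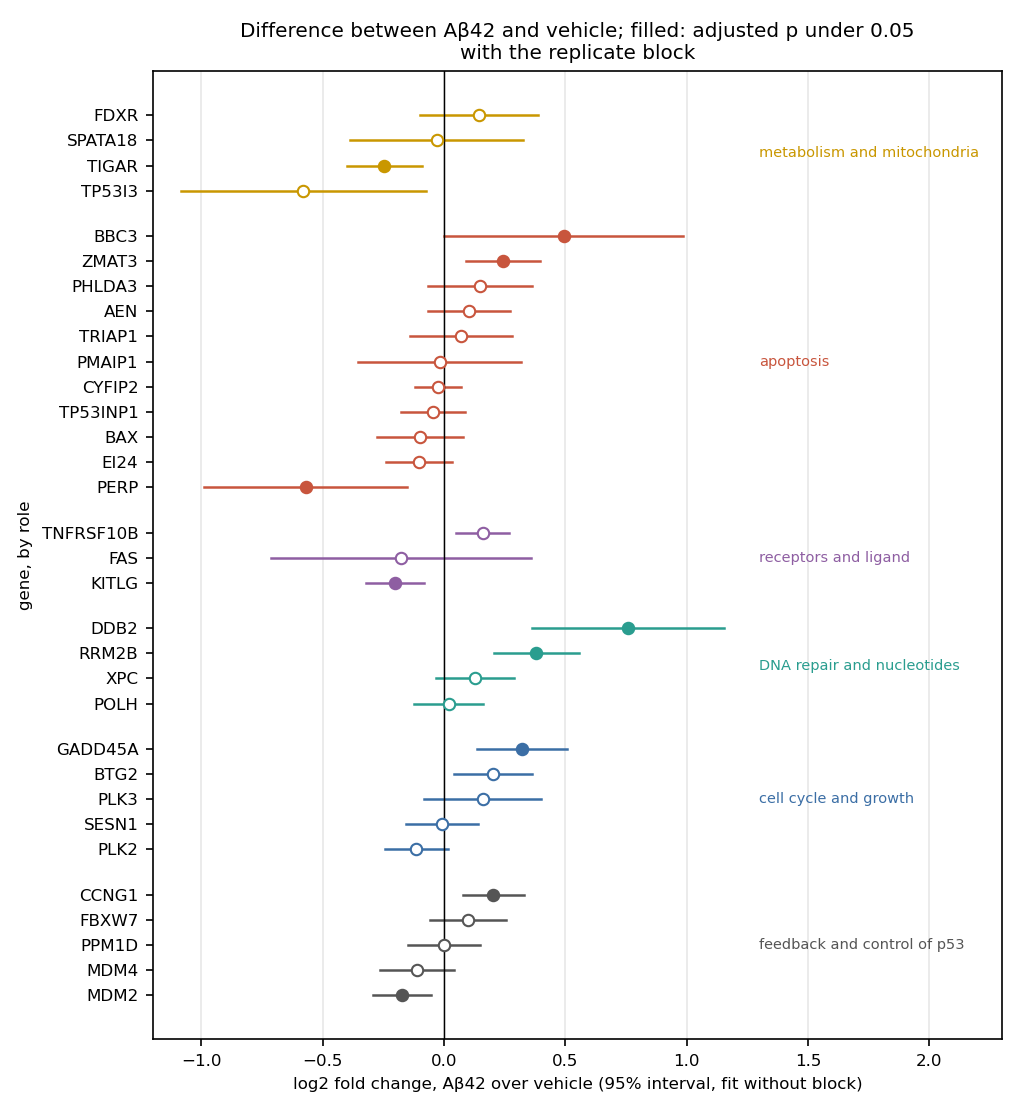
Log2 fold change of Aβ42 over vehicle for each of the 32 genes with its 95% interval from edgeR's fit without a block, grouped by role. Filled points are the 10 genes that passed an adjusted p of 0.05 with the replicate block, and they run from PERP at -0.57 to DDB2 at 0.76.

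Genes that control p53 itself differed in direction: MDM2 was lower, CCNG1 higher, and the other 3 of 5 did not reach an unadjusted p under 0.05. The share that reached it was 40%, against 23.9% of all genes. MDM2 (Entrez gene 4193), the ligase that marks p53 for destruction, was at 150.3, 161.7 and 157.2 CPM with vehicle and 137.6, 147.1 and 131.3 CPM with Aβ42. All 3 Aβ42 libraries lay below all vehicle libraries, with a log2 fold change of -0.17 ± 0.05, an adjusted p of 0.108 and one of 0.0335 with the block. Its estimated counts were whole in 1 of 6 libraries, and how reads shared between features were divided is not given in the sources used here, so its level is less certain. CCNG1 (Entrez gene 900), a p53 target whose product brings a phosphatase to MDM2, was at 110.4, 111.3 and 110.4 CPM with vehicle and 132.1, 116.9 and 133.4 CPM with Aβ42. Vehicle values were nearly equal and the Aβ42 values lay above them, replicate 2 nearest, with a log2 fold change of 0.20 ± 0.06, an adjusted p of 0.0888 and one of 0.024 with the block. MDM4, the relative of MDM2 that blocks p53's activating domain, had a log2 fold change of -0.11 ± 0.07, 95% interval -0.26 to 0.04. PPM1D, a phosphatase that ends the damage signal, was at 0.0018 (-0.15 to 0.15), and FBXW7, a substrate receptor of a ubiquitin ligase, at 0.10 (-0.06 to 0.26).

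CDKN1A, the CDK inhibitor that carries out much of the p53 arrest, was at 127.9, 133.3 and 131.1 CPM with vehicle and 190.6, 162.1 and 203.9 CPM with Aβ42. Its Aβ42 values were all higher, at a log2 fold change of 0.50 ± 0.08 with an adjusted p of 0.0684 and one of 0.000309 with the block, a size that DDB2, PERP and TP53I3 exceeded among the members.

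Damage repair and nucleotide supply held the 2 members with the smallest p-values. All 4 genes of this group had a log2 fold change above 0, as did 50.7% of all genes. RRM2B (Entrez gene 50484), the p53-induced small subunit of ribonucleotide reductase that supplies deoxynucleotides outside S phase, was at 115.2, 114.3 and 115.4 CPM with vehicle and 166.5, 130.2 and 152.4 CPM with Aβ42. The vehicle libraries differed by about 1 CPM while all Aβ42 libraries were higher, replicate 1 most and replicate 2 least. The log2 fold change was 0.38 ± 0.08, with an adjusted p of 0.0691, and with the block the adjusted p was 0.00132 (range over alternatives 0.000187 to 0.296). RRM2, the small subunit used in S phase and a marker of cycling cells, went the other way at 49.5, 56.1 and 52.7 CPM with vehicle and 25.9, 45.4 and 26.0 CPM with Aβ42, a log2 fold change of -0.70 ± 0.23 with an adjusted p of 0.154, and one of 0.0381 with the block. DDB2 (Entrez gene 1643), which recognises ultraviolet lesions in chromatin and whose transcript start carries the site with 0 mismatches shown above, was at 9.19, 6.69 and 7.50 CPM with vehicle and 14.5, 9.92 and 15.2 CPM with Aβ42. Groups did not overlap, but Aβ42 replicate 2 lay close to vehicle replicate 1. On 110 to 253 counts per library the log2 fold change was 0.76 ± 0.18, with a 95% interval of 0.36 to 1.15, the largest of the 32, with an adjusted p of 0.0734 and one of 0.000921 with the block. XPC, the partner of DDB2 in finding lesions, was at 0.13 (-0.03 to 0.29), and POLH, a polymerase that copies past lesions, at 0.02 (-0.12 to 0.16).

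Among 5 genes of the cell cycle and growth, GADD45A and BTG2 were higher and none was lower at an unadjusted p under 0.05. Over all genes 12.4% were higher and 11.5% lower by the same measure. GADD45A (Entrez gene 1647), a stress-induced protein that inhibits the mitotic kinase CDK1, was at 39.4, 32.5 and 39.5 CPM with vehicle and 48.0, 43.0 and 48.3 CPM with Aβ42. Both libraries numbered 2 were the lowest of their group, and the groups did not overlap. Its log2 fold change was 0.32 ± 0.08, with an adjusted p of 0.0807 and one of 0.00407 with the block. BTG2 (Entrez gene 7832), an antiproliferative factor that marks neurogenic divisions of cortical progenitors, was at 28.7, 29.9 and 32.3 CPM with vehicle and 33.3, 37.1 and 34.3 CPM with Aβ42. Here Aβ42 replicate 2 was the highest library, Aβ42 replicate 1 stood just above vehicle replicate 3, and the log2 fold change was 0.20 ± 0.07 with an adjusted p of 0.137 and 0.0713 with the block. PLK2 and PLK3, polo-like kinases of the stress response, had log2 fold changes of -0.11 (-0.24 to 0.02) and 0.16 (-0.08 to 0.40), and SESN1, a sestrin that restrains the growth kinase mTORC1, one of -0.01 (-0.16 to 0.14).

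**Figure D3:**
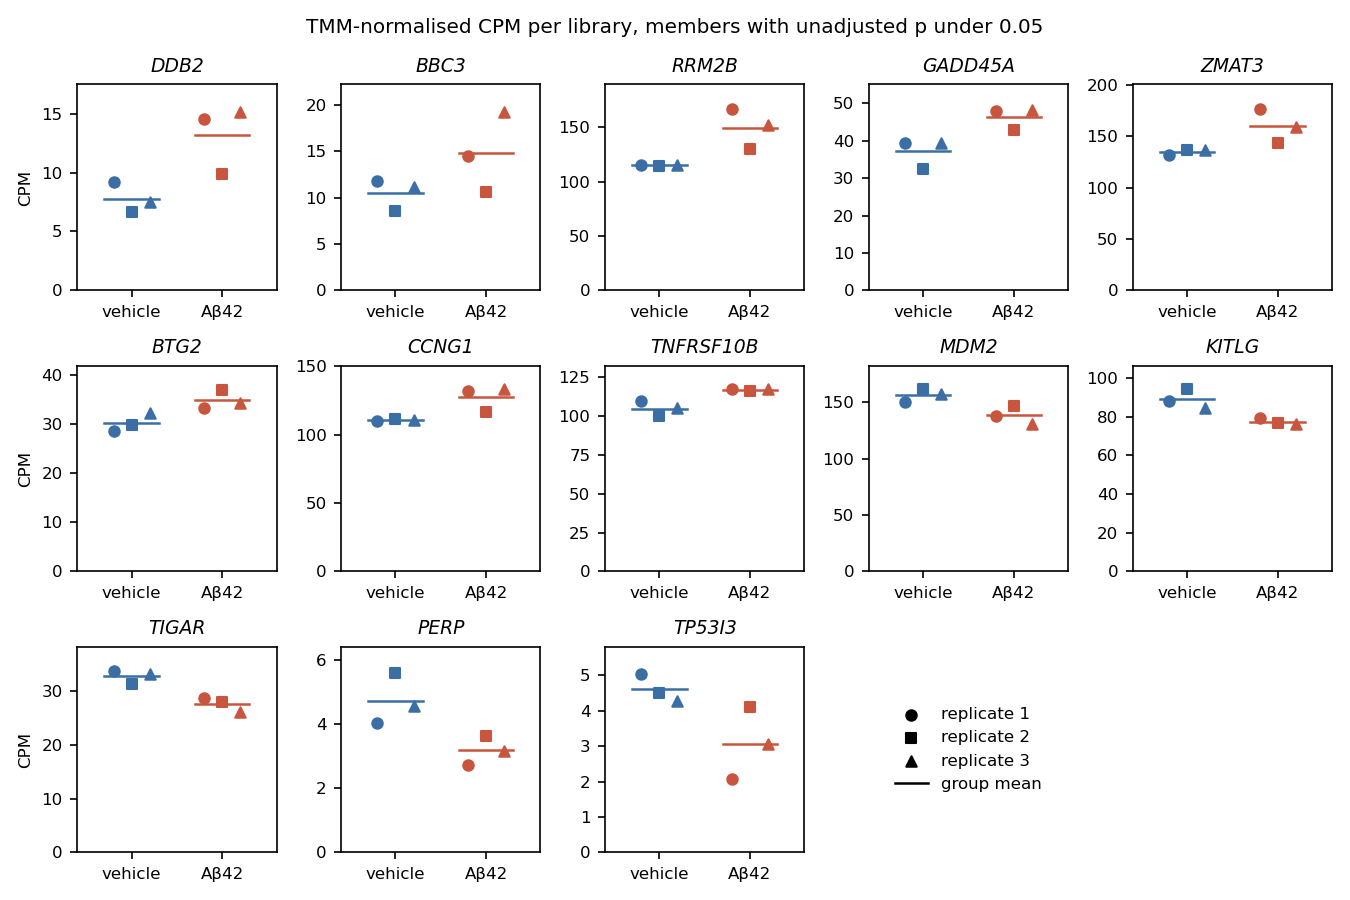
TMM-normalised CPM in each library for the 13 members with an unadjusted p under 0.05, vehicle in blue and Aβ42 in red, with 1 symbol per replicate number and a line at each group mean, and every axis starting at 0. BBC3 is the only one of the 13 whose groups overlap, through vehicle replicates 1 and 3 at 11.8 and 11.2 CPM and Aβ42 replicate 2 at 10.6 CPM.

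Receptors and ligand differed in direction. TNFRSF10B (Entrez gene 8795), which encodes the TRAIL death receptor DR5, was at 109.5, 99.9 and 105.1 CPM with vehicle and 117.4, 116.3 and 117.5 CPM with Aβ42. The 3 Aβ42 values were within about 1 CPM of each other and above every vehicle value, and the log2 fold change was 0.16 ± 0.05 with an adjusted p of 0.106 and 0.0521 with the block. FAS, the other death receptor, was at 2.52, 2.07 and 2.13 CPM with vehicle and 1.83, 2.55 and 1.56 CPM with Aβ42, the groups overlapping, with a log2 fold change of -0.18 ± 0.24 and a 95% interval of -0.71 to 0.36. On 26 to 43.0 counts per library, neither a lower nor a higher level within that interval can be left out. KITLG (Entrez gene 4254), the secreted ligand of the receptor KIT, was at 88.2, 94.2 and 84.6 CPM with vehicle and 79.1, 76.8 and 76.3 CPM with Aβ42. Every Aβ42 library was below every vehicle library, with a log2 fold change of -0.20 ± 0.05, an adjusted p of 0.0837 and one of 0.0251 with the block.

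Of 11 genes placed with apoptosis, BBC3 and ZMAT3 were higher and PERP lower, and 8 did not reach an unadjusted p under 0.05. This share of 27.3% was near the 23.9% of all genes. BBC3 (Entrez gene 27113), whose product PUMA frees BAX and BAK to open the mitochondrial membrane, was at 11.8, 8.57 and 11.2 CPM with vehicle and 14.5, 10.6 and 19.3 CPM with Aβ42. Aβ42 replicate 3 was far above the rest, and Aβ42 replicate 2 below vehicle replicates 1 and 3. The unadjusted p of BBC3 was close to 0.05, at 0.0494 in edgeR's test and 0.0515 with limma-voom. The log2 fold change was 0.49 ± 0.21, with an adjusted p of 0.209, or 0.0118 with the block (range over alternatives 0.0109 to 0.524), and without Aβ42 replicate 3 the log2 fold change was 0.26 (adjusted p 0.524). ZMAT3 (Entrez gene 64393), an RNA-binding protein that carries p53 signals to splicing, was at 131.6, 136.7 and 136.8 CPM with vehicle and 176.8, 143.5 and 159.4 CPM with Aβ42. Its Aβ42 values were all higher, replicate 1 most, at a log2 fold change of 0.24 ± 0.07, an adjusted p of 0.0900 and one of 0.0197 with the block. The estimated counts of ZMAT3 were whole in 0 of 6 libraries, so the same limit holds for it. PERP (Entrez gene 64065), a membrane protein of desmosomes, was at 4.02, 5.59 and 4.57 CPM with vehicle and 2.74, 3.62 and 3.18 CPM with Aβ42. All Aβ42 values were lower, at a log2 fold change of -0.57 ± 0.19, an adjusted p of 0.12 and one of 0.0322 with the block, on 45 to 92 counts.

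Neither BAX nor PMAIP1 reached an unadjusted p under 0.05. BAX was at 21.0, 22.1 and 20.2 CPM with vehicle and 20.2, 20.4 and 18.6 CPM with Aβ42, which overlapped, with a log2 fold change of -0.10 ± 0.08 and a 95% interval of -0.27 to 0.08. PMAIP1 (NOXA) was at 6.61, 4.99 and 5.92 CPM with vehicle and 5.24, 6.00 and 6.06 CPM with Aβ42, with a log2 fold change of -0.02 ± 0.15 and a 95% interval of -0.35 to 0.32. The interval of BAX is narrow enough to leave out a rise of the size seen in CDKN1A, and so is that of PMAIP1. For TP53INP1, an autophagy and stress factor, the log2 fold change was -0.05 (-0.18 to 0.08), for EI24 -0.10 (-0.24 to 0.03) and for CYFIP2 -0.03 (-0.12 to 0.07). AEN, a nuclease, PHLDA3, an inhibitor of the survival kinase AKT, and TRIAP1, which opposes apoptosis, were at 0.10 (-0.07 to 0.27), 0.15 (-0.07 to 0.36) and 0.07 (-0.14 to 0.28).

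In the metabolic group TIGAR and TP53I3 were lower and FDXR and SPATA18 did not reach an unadjusted p under 0.05. The share that reached it was 50%, against 23.9% of all genes. TIGAR (Entrez gene 57103), a phosphatase that slows glycolysis, was at 33.8, 31.3 and 33.1 CPM with vehicle and 28.8, 27.9 and 26.0 CPM with Aβ42. Groups did not overlap, and the log2 fold change was -0.25 ± 0.07, with an adjusted p of 0.0898 and one of 0.0317 with the block. TP53I3 (Entrez gene 9540), a quinone oxidoreductase that makes reactive oxygen, was at 5.05, 4.50 and 4.27 CPM with vehicle and 2.07, 4.10 and 3.06 CPM with Aβ42. Aβ42 replicate 1 was lowest and replicate 2 close to vehicle, so the log2 fold change of -0.58 ± 0.23 (adjusted p 0.163, with the block 0.0677) was -0.36 without Aβ42 replicate 1 (adjusted p 0.409). FDXR, the reductase that feeds electrons to mitochondrial ferredoxin, was at 0.14 (-0.10 to 0.39), and SPATA18, a factor of mitochondrial quality control, at -0.03 (-0.39 to 0.33).

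Taken by replicate number, 16 of 32 members differed in the same direction in all 3 pairs (50%, against 50.2% of all genes). Numbers 1 and 3 were not told apart, so ratios of pairs 1 and 3 depend on the numbering. DDB2 was higher by log2 ratios of 0.66, 0.57 and 1.02 in pairs 1 to 3, and BBC3 by 0.30, 0.31 and 0.79. PERP was lower in every pair (-0.55, -0.63 and -0.52), on 45 to 92 counts. For RRM2B, ZMAT3 and CCNG1 the second pair gave the smallest ratio (0.19, 0.07 and 0.07), and for GADD45A, BTG2 and TNFRSF10B the largest (0.40, 0.31 and 0.22). Among the 12 members whose groups did not overlap, Aβ42 replicate 2 was the Aβ42 library nearest to vehicle in 9 (75%), close to the share over all such genes (70.4% of 3732).

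**Figure D4:**
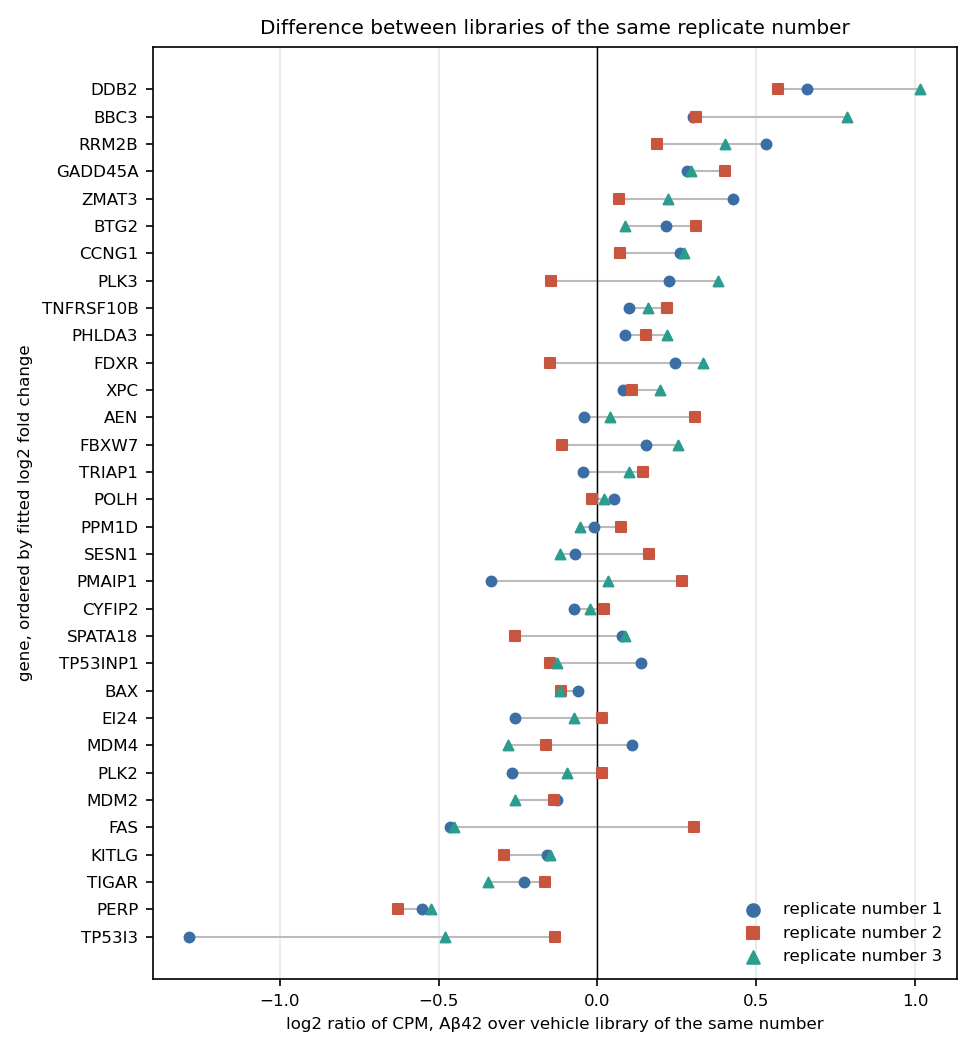
Log2 ratio of CPM between the Aβ42 and the vehicle library of the same replicate number, 3 symbols per gene for numbers 1 to 3, ordered by fitted log2 fold change. DDB2, at the top, lies right of 0 in all 3 pairs (0.57 to 1.02), while TP53I3, at the bottom, spreads from -1.28 to -0.13.

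Other genes of the pathway were read from 2 further lists. Of 32 upstream regulators and cofactors of p53, 31 were tested and 12 had an unadjusted p under 0.05 (38.7%, against 23.9% of all genes), 5 higher and 7 lower. Their median log2 fold change was -0.01, with 14 of 31 above 0, against 0.0032 and 50.7% over all genes. With the block 5 of the 31 rose and 6 fell at an adjusted p under 0.05, which 14.2% of all genes passed. The 3 with the smallest p among the higher ones were KAT8, an acetyltransferase that modifies p53 (log2 fold change 0.33 ± 0.07), and the ribosomal proteins RPL5 (0.31 ± 0.07) and RPL11 (0.38 ± 0.09), which bind MDM2 under ribosomal stress. RPL11 was at 403.6, 352.9 and 377.8 CPM with vehicle and 548.2, 429.3 and 493.9 CPM with Aβ42, with no overlap. Lower were TRIM24, a ligase that acts on p53 (-0.26 ± 0.05), the acetyltransferase EP300 (-0.22 ± 0.05) and TP53BP1, a damage reader that binds p53 (-0.19 ± 0.05). In edgeR's quasi-likelihood test the adjusted p-values of these 6 lay between 0.0684 and 0.0891 without the block and between 0.00029 and 0.0135 with it. Counts of TP53BP1 were whole in 0 of 6 libraries. RPL5 and RPL11 have near-identical pseudogene copies, which leaves their levels uncertain.

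Of 102 further p53 target genes, 101 were in the table and 84 were tested. An unadjusted p under 0.05 was reached by 25 (29.8%, near the 23.9% of all genes), 16 higher and 9 lower, against 12.4% and 11.5% of all genes. With the block 9 of the 84 rose and 7 fell at an adjusted p under 0.05, which 14.2% of all genes passed. Their median log2 fold change was 0.02, with 50 of 84 above 0, against 0.0032 and 50.7% over all genes. Over both lists the 37 genes at an unadjusted p under 0.05 became 21 with vehicle replicate 2 left out, 22 when that library was Aβ42 replicate 1 and 23 when it was Aβ42 replicate 3. Smallest in p among the higher genes were the chaperone gene HSPA4L (0.33 ± 0.08), the potassium-chloride cotransporter gene SLC12A4 (0.28 ± 0.07) and ARVCF, a catenin (0.22 ± 0.06). The lower ones were the chemokine gene CX3CL1 (-0.44 ± 0.11), the GTPase gene HRAS (-0.25 ± 0.07) and E2F7, a repressor of S phase genes (-0.54 ± 0.13). Its lowest vehicle library was at 18.7 CPM and its highest Aβ42 library at 16.4 CPM, so E2F7, which p53 can induce, was lower in every Aβ42 library than in every vehicle library. Adjusted p-values of the 6 ran from 0.0734 to 0.0868 in edgeR's test without the block and from 0.00156 to 0.0369 with it.

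Markers of cycling cells were lower with Aβ42. All 10 were below 0 in log2 fold change. Of them 9 had an unadjusted p under 0.05, against 11.5% of all genes lower by that measure. With the block 9 passed an adjusted p of 0.05, against 14.2% of all genes in either direction. Together the 10 summed to 452 to 535 TPM in vehicle and 288 to 410 TPM with Aβ42, with no marker at 0. E2F7 and RRM2 are themselves high in cycling cells. The stress factors ATF4 and CHOP are also known to induce TNFRSF10B, BBC3 and GADD45A. A list of 10 genes held both factors and targets of theirs, among them SESN2, which is also on the list of further p53 targets. Of these, 5 of 10 were higher at an unadjusted p under 0.05 and 0 lower, against 12.4% and 11.5% of all genes. Their summed level was 1277 to 1510 TPM in vehicle and 1523 to 1612 TPM with Aβ42. DDIT3, which encodes CHOP, was at 23.8, 18.8 and 22.4 CPM with vehicle and 31.6, 27.0 and 37.9 CPM with Aβ42. The summed markers of astrocytes were at 233 to 280 TPM in vehicle and 179 to 234 TPM with Aβ42 (1 of 8 higher and 1 lower without the block, 0 and 3 with it, median log2 fold change -0.54), of neurons at 4882 to 5178 and 4591 to 4714 TPM (2 of 10 higher and 5 lower, 0 and 4 with the block), of radial glia at 8370 to 8746 and 8590 to 8931 TPM (1 of 10 higher and 3 lower, 0 and 3 with the block), and of choroid plexus at 3350 to 7575 and 2840 to 6666 TPM (0 of 7 tested at an unadjusted p under 0.05, but 2 lower with the block, median log2 fold change -0.48). Mesenchymal markers summed to 19.0 to 34.3 and 15.6 to 20.6 TPM. What part these shifts had in the differences of the p53 genes was not tested.

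CYFIP2, singled out after its values were seen, differed between groups in how its counts related to its TPM. Counts per unit of TPM reflect the transcript length used for a gene in that library, and, scaled to the median of each library, they were 36.3, 36.9 and 36.7 with vehicle and 32.7, 35.3 and 32.4 with Aβ42. The groups did not overlap, and no test was made. The difference of -0.13 on the log2 scale was larger in size than in all but 1.10% of 10975 genes with at least 50 counts on average and over 5 TPM in every library, and among the other 27 of 28 members that could be compared it was at most 0.04 in size. CYFIP2 therefore had a log2 fold change of -0.03 in counts and of 0.06 on the log2(TPM + 1) scale. Which transcripts made up the difference was not tested, since the table gives no value per transcript.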

How the data were processed

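Polyadenylated RNA of 6 organoid libraries was sequenced, and the authors deposited an estimated read count and a TPM value (scaled to transcript length and to a fixed total, by the authors) per gene and library. Only 86.9% to 87.5% of the deposited counts in a library were whole, so they were treated as estimated counts and rounded. The submitters' processing notes name FastQC, STAR 2.7.11b, featureCounts 2.0.6 and GRCh38, with no roles; whether counting used strand is not given in the sources used here.

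Totals were 16465390 to 16742958 counts, and the median tested gene had 496 to 516. Genes were filtered with filterByExpr, scaled by TMM and compared with edgeR 4.0.16's quasi-likelihood test (R 4.3.3, robust, two-sided, no block), with Benjamini-Hochberg adjustment over 13842 genes. SE is the log2 fold change over the square root of F. limma 3.58.1, DESeq2 1.42.0, other scalings and filters, a replicate block and leaving out each library were the alternatives. The test was also run on simulated counts, drawn independently for each library. That setting lacks the likeness between libraries numbered 2, so no conclusion is drawn from it.

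Deviations from group means of same-numbered libraries correlated at 0.181, 0.384 and 0.129 over 12186 genes, and different numbers reached 0.176. Numbers were taken as pairs from these data alone, and only number 2 stood apart. Deviations are centred on each group's mean, so the values for numbers 1 and 3 cannot show that those pairs hold. Libraries differed by a chi-square of at least 3.16 per gene, above sampling noise, so none is a mere repeat of another. Each was counted as 1 replicate, though this check cannot show separate differentiations.

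Members and lists were chosen with earlier results of these data known. Full values are given for members with no overlap and an unadjusted p under 0.05 and for MDM2, BAX, BBC3, PMAIP1, FAS, TNFRSF10B, GADD45A and CCNG1, and of other lists for the 3 smallest p-values per direction. Some results are not reported here. Promoter sequences are from RefSeq.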

Additional observations from a re-analysis of the deposited data

How the results depend on the processing

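The 13 members with an unadjusted p under 0.05 kept their sign under all 15 alternatives, and of the other 19 members 0 passed an adjusted p of 0.05 in any (lowest 0.0502) while 7 changed sign. The 13 were picked by p-value from these same libraries, and in 12 of them the groups did not overlap. Leaving out a library could hardly reverse those, and the other 19 include the genes nearest 0, so this contrast restates the choice. The count of members passing an adjusted p of 0.05 was 0 in edgeR's fit without a block, 2 (DDB2 and RRM2B) with no filter on low counts, 4 of 28 with an adjusted p in DESeq2's Wald test, 10 with the replicate block and 0 to 12 when 1 library was left out, with 12 without Aβ42 replicate 2 and 0 without any other. Over all genes these counts were 0, 360, 814, 1962 and 0 to 3224, against 3302 at an unadjusted p under 0.05. The block changed the call of these 10 members and of no other. Members at an unadjusted p under 0.05 numbered 10 to 17 with 1 library left out, and the other p53 pathway genes 21 to 45 around 37. Without vehicle replicate 2 they numbered 21, without Aβ42 replicate 1 22 and without Aβ42 replicate 3 23. The median log2 fold change of the members was 0.01, and 0.025 with upper-quartile scaling, -0.0032 on log2(TPM + 1), -0.0034 on log2(TPM + 0.1) and 0.0034 to 0.047 with 1 library left out. The sign of genes near 0 depended on the setting. SESN1 was at 0.0069 with upper-quartile scaling; on log2(TPM + 1) POLH was at -0.013, PPM1D at -0.039 and CYFIP2 at 0.062, and on log2(TPM + 0.1) they were at -0.014, -0.040 and 0.062. With 1 library left out SESN1 ranged from -0.059 to 0.024, POLH from -0.016 to 0.054, PPM1D from -0.032 to 0.055, PMAIP1 from -0.12 to 0.082, SPATA18 from -0.13 to 0.030 and TRIAP1 from -0.0094 to 0.13. The causes were not tested. With 3 libraries a group no exact permutation test goes below 0.1. FAS and TP53I3, with the fewest counts on average among the members, have the widest intervals.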

Other observations

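Among the 101 further p53 target genes in the table, SERPINB5, which encodes the serpin maspin of epithelia, had 0 counts in all 6 libraries. The summed level of the 32 upstream regulators and cofactors, among them abundant ribosomal proteins, was 6664 to 7241 TPM in vehicle and 7363 to 8427 TPM with Aβ42, without overlap, while the median log2 fold change of the 31 tested was -0.01, with 14 above 0. Summed over the 4 genes of DNA repair and nucleotide supply, the level was 127 to 133 TPM in vehicle and 140.2 to 169 TPM with Aβ42, and over the 4 metabolic genes it was 40.6 to 44.5 and 36.8 to 38.3 TPM. The 11 apoptosis genes together were at 611 to 627 TPM in vehicle and 616 to 625 TPM with Aβ42.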
